A study of Canis lupus familiaris with 10 samples.

Results

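The miR-34 and miR-449 family was followed here through its 4 listed members, cfa-miR-34a, cfa-miR-34b, cfa-miR-34c and cfa-miR-449a (below without the prefix for dog), which were taken by name from the 320 miRNAs counted in canine lymph nodes. The nodes were fresh-frozen, and small RNA was sequenced from 6 nodes with diffuse large B-cell lymphoma (DLBCL), libraries DLBCL1 to DLBCL6, and from 4 histologically normal nodes, libraries Healthy2 to Healthy5. Every library came from a separate dog, so that the p-values measure the spread between these dogs. Those with lymphoma were client-owned patients of several breeds and either sex, biopsied under anesthesia, and their ages are not given in the sources used here. The healthy dogs were purpose-bred young female hound crosses, less than a year old, that were euthanized in veterinary teaching courses. Whether their nodes were taken before or after death is not stated. Diagnosis therefore cannot be told apart from age, breed or the way of sampling, and it is confounded with sex in part. By the numbering in the supplement of the study, DLBCL3 and DLBCL5 came from females and the other lymphomas from males. In bulk tissue, fewer cells of a type and less RNA per cell also cannot be told apart.

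The miR-34 members of the family are best known as small RNAs downstream of p53, the transcription factor that stops the cell cycle or starts apoptosis after DNA damage. MiR-34a has a gene of its own, miR-34b and miR-34c are cut from one shared transcript, and miR-449a comes from an intron of CDC20B and is abundant in multiciliated epithelium. For gene order only, the RefSeq table of the dog assembly UU_Cfam_GSD_1.0 was used, which is not the build the reads were mapped to. There MIR34C and MIR34B were direct neighbours beside BTG4, and MIR449A lay next to MIR449B within CDC20B. Because the members have related sequences, they share many predicted targets, among them BCL2, CDK6, MYC and FOXP1 in studies of other species, and reads of miR-34b and miR-34c in particular could be split between them by the counting.

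Each library held between 10686441 and 34709421 reads on miRNAs, fewer in DLBCL than in healthy nodes, and the 4 members took between 571 and 27275 of these. Levels are given as CPM, counts scaled to a common library size with edgeR's TMM factors. MiRNAs known from lymphoid tissue (miR-150, miR-142, miR-155, miR-342, miR-181a and miR-146a) had reads in every library, and their summed level was 13200 to 28400 CPM in DLBCL and 22900 to 41200 CPM in healthy nodes, with miR-150 and miR-146a called lower in DLBCL. DLBCL3 stood apart from the other lymphomas. Of the 247 miRNAs tested, 104 had their lowest DLBCL value in this library and 62 their highest, against 15 to 40 and 13 to 51 in the other DLBCL libraries. The main values that rest on DLBCL3 are therefore given with and without it.

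MiR-34a, which in other species holds back cell cycle and survival genes, was the member that rose in DLBCL, and 5 of the 6 lymphomas showed the direction. Its level was 295 ± 270 CPM (SD) over the 6 lymphomas and 18.4 ± 7.05 CPM (SD) over the 4 healthy nodes. It measured 294 CPM in DLBCL1, 196 in DLBCL2, 4.05 in DLBCL3, 754 in DLBCL4, 91.3 in DLBCL5 and 431 in DLBCL6. In healthy nodes it measured 10.5 CPM in Healthy2, 20.3 in Healthy3, 15.9 in Healthy4 and 27.1 in Healthy5. Thus 5 lymphomas lay above every healthy node and DLBCL3 lay below every healthy node, so that the groups overlapped, as they did for all 4 members. DLBCL3 and DLBCL5, the lymphomas from females, held the least miR-34a of the 6, and a part of sex in this was not tested. Of all miRNAs tested, 13.0% had groups that did not overlap, 6.88% with the lymphomas higher.

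The log2 fold change of miR-34a was 4.0 with a standard error of 1.05 (adjusted p = 0.0397, quasi-likelihood test of edgeR, adjusted over the 247 miRNAs tested by Benjamini and Hochberg). It ranked 6 among the 247 by log2 fold change. A miRNA was called when its adjusted p was under 0.05 and its fold change over 2, and miR-34a alone of the 3 members tested was called, while 5.67% of all miRNAs tested were. These 14 calls were 9 higher (3.64%) and 5 lower (2.02%) in DLBCL, and they became 22 higher and 1 lower when the counts were scaled to total miRNA reads only, a scaling under which the middle of all log2 fold changes moved from 0.13 to 0.82. Relative to this middle value (the median), miR-34a was at 3.87 with TMM and at 4.09 with total reads. DESeq2 called miR-34a as well (log2 fold change 4.01, adjusted p = 6.98e-05), as it did 16.2% of the miRNAs it gave an adjusted p.

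The exact permutation test of log2 CPM did not pass for miR-34a (two-sided, p = 0.0667, where 0.00952 is the smallest that 6 libraries against 4 allow). Without DLBCL3, the one lymphoma against the direction, the groups no longer overlapped, which by itself sets the exact p to its smallest value for 5 libraries against 4, so that it is no independent support. The log2 fold change from edgeR was then 4.28 (standard error 0.65, adjusted p = 0.00317). The 5 remaining lymphomas measured 353 ± 256 CPM (SD, n = 5), and their median was 72.8 times the level of DLBCL3. The edgeR call was lost without DLBCL1 (adjusted p = 0.0866), without DLBCL6 (adjusted p = 0.0537) and when Healthy2, Healthy3, Healthy4 or Healthy5 was dropped (adjusted p from 0.108 to 0.16), whereas the log2 fold change stayed between 3.47 and 4.28.

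The share of bases with a quality score above Q30, as the supplement of the study lists it, divided the libraries in another way, with DLBCL1, DLBCL2, DLBCL3 and DLBCL5 in a higher group and DLBCL4, DLBCL6 and the healthy libraries in a lower group. Within the lower group the log2 fold change of miR-34a was 4.99 (adjusted p = 0.00013 from edgeR), and it was 5.01 with the Q30 group as a covariate (adjusted p = 0.0271). The higher group holds no healthy library and gives no value of its own, so that both fits set DLBCL4 and DLBCL6 alone against the healthy nodes. These are the lymphomas with the most miR-34a, at 754 and 431 CPM, and the fits are not separate results.

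**Figure D1:**
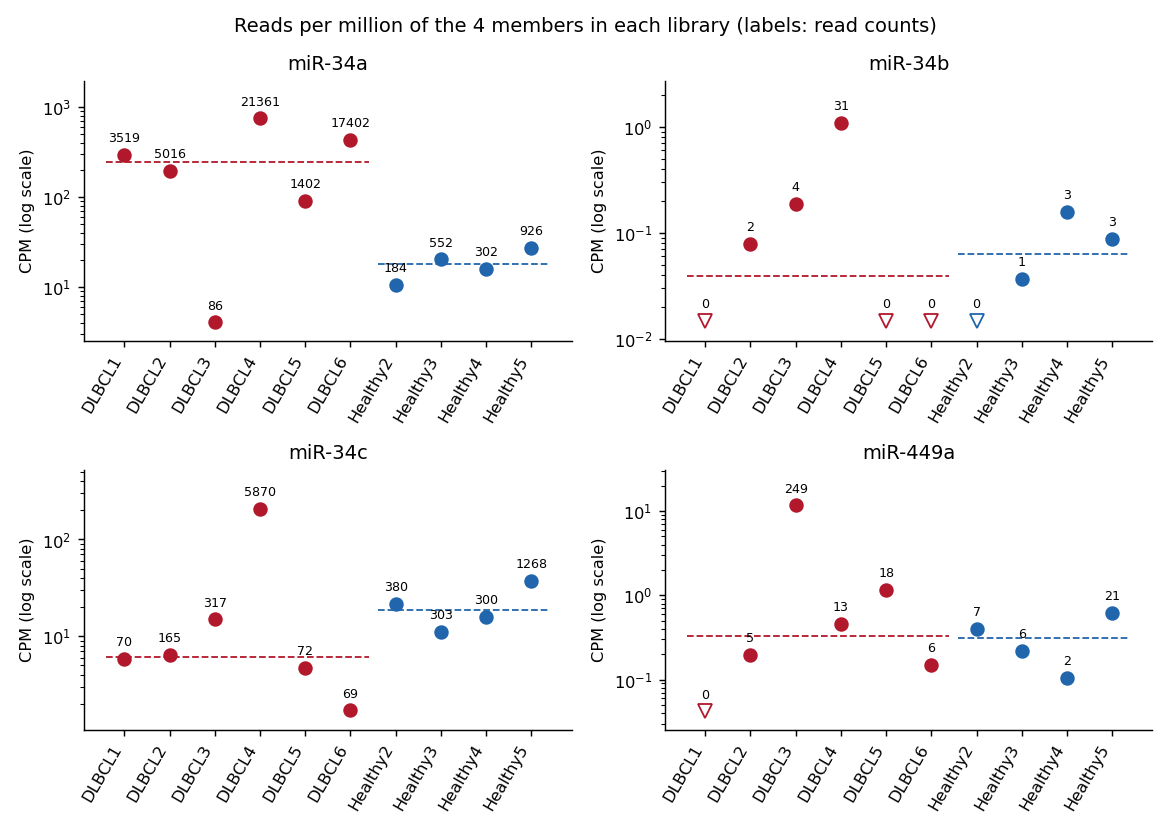
Level of each member in each library, as CPM on a logarithmic axis, with the number of reads above each point. Red points are DLBCL, blue points healthy nodes, dashed lines group medians, and open triangles, drawn below the lowest measured level, libraries with 0 reads. For miR-34a, 5 DLBCL libraries lie above every healthy library, DLBCL4 alone lies above them for miR-34c, and DLBCL3 holds the highest miR-449a.

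MiR-34c, which p53 also induces in many cell types, did not follow miR-34a. It measured 5.86 CPM in DLBCL1, 6.45 in DLBCL2, 14.9 in DLBCL3, 207 in DLBCL4, 4.69 in DLBCL5 and 1.71 in DLBCL6. The healthy nodes measured 21.6 CPM in Healthy2, 11.1 in Healthy3, 15.8 in Healthy4 and 37.2 in Healthy5. Of the lymphomas, 4 lay below every healthy node, DLBCL3 lay within the healthy range, and DLBCL4 held 13.9 times the level of the next lymphoma.

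For miR-34c edgeR gave a log2 fold change of 0.91, with an approximate 95% interval from -1.42 to 3.23 (adjusted p = 0.672). Its sign rested on DLBCL4. Without this library edgeR gave -1.55 ± 0.66 (SE, adjusted p = 0.137), and the 5 other lymphomas measured 6.73 ± 4.93 CPM (SD, n = 5) against 21.4 ± 11.3 CPM (SD, n = 4) in healthy nodes. With the Q30 group as a covariate the log2 fold change was 2.28 (adjusted p = 0.327 from edgeR). Within the lower Q30 group, the same contrast of DLBCL4 and DLBCL6 with the healthy nodes, it was 2.27 (adjusted p = 0.219 from edgeR). With total miRNA reads it was 1.88 (adjusted p = 0.352 from edgeR). The exact permutation p for miR-34c was 0.476 with all libraries and 0.0317 without DLBCL4, a choice made after its value was seen. The difference of mean log2 CPM, in which DLBCL4 weighs less than in a ratio of means, was -0.95.

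MiR-34b was close to the limit of detection and did not pass the filter on low counts. DLBCL4 held 31 reads, DLBCL3 held 4, DLBCL2 held 2, and the other 3 lymphomas held 0. The healthy nodes held 0 reads in Healthy2, 1 in Healthy3, 3 in Healthy4 and 3 in Healthy5. Where no read was found, up to 3 reads remain possible by counting error, which is 0.281 TPM (the deposited unit, counts scaled to the total of listed miRNA reads) in DLBCL1, 0.136 TPM in DLBCL5 and 0.151 TPM in DLBCL6. DLBCL4 was the only library above 4 reads and stood at 1.09 CPM, against at most 0.158 CPM in healthy nodes. No difference between the groups was detectable (two-sided exact permutation of log2 CPM, p = 0.829), and no fold is read as a result because the healthy libraries lay at or under 3 reads.

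MiR-34b and miR-34c, which share a transcript, were both highest in DLBCL4 among the 10 libraries. The ratio of miR-34b to miR-34c reads was 0.00528 in DLBCL4 and between 0.00237 and 0.0126 in the other libraries with a read of each. Within the 6 DLBCL libraries, log2 CPM of miR-34b and miR-34c had Pearson's r = 0.96 (exact permutation p = 0.0167, 0.1 adjusted over the 6 pairs of members), which did not pass. No Spearman's rho is given for this pair, because DLBCL1, DLBCL5 and DLBCL6 tie at 0 reads of miR-34b and the computed ranks did not keep the tie. Without DLBCL3 and DLBCL4, the libraries farthest from the median of miR-34b, r was 0.48 over 4 libraries, of which 3 held 0 reads of miR-34b, so that the relation rests on those with reads.

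MiR-449a was the rarest member to be tested and was high in one lymphoma. It had 0 reads in DLBCL1, 5 in DLBCL2, 249 in DLBCL3, 13 in DLBCL4, 18 in DLBCL5 and 6 in DLBCL6. In healthy nodes it had 7 reads in Healthy2, 6 in Healthy3, 2 in Healthy4 and 21 in Healthy5. DLBCL3 stood at 11.7 CPM, 10 times the next lymphoma, and the other 5 lymphomas measured 0.395 ± 0.465 CPM (SD, n = 5) against 0.335 ± 0.223 CPM (SD, n = 4) in healthy nodes. MiR-449a passed the filter through 4 libraries, and it was not tested when DLBCL3, DLBCL4 or DLBCL5 was left out.

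For miR-449a edgeR gave 2.73 ± 1.45 (log2 fold change and SE, adjusted p = 0.233), and -0.20 among the libraries of lower Q30, which do not include DLBCL3. With no filter on low counts and without DLBCL3 it was 0.07. The exact permutation p was 0.714 with all libraries and 0.825 without DLBCL3. MiR-449b, its gene neighbour and no member here, had 1 read in DLBCL4 and 0 in the other libraries.

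Some markers of epithelium, though not all, were highest in the library with the most miR-449a. The summed level of 8 epithelial miRNAs was 203 CPM in DLBCL3 and 71.3 CPM in DLBCL5, the lymphomas with the most miR-449a, against 19 to 30.5 CPM in the other lymphomas and 22.4 to 37 CPM in healthy nodes. Of the 8, 4 had a read in every library. In DLBCL3, miR-375, known from endocrine and other epithelial cells, measured 72.6 CPM, miR-200c measured 108 CPM and miR-200a 14.5 CPM, each above every other library. MiR-429 and miR-205 were also highest there, at 0.518 and 0.329 CPM. In contrast, miR-203 had its lowest value of the 10 libraries in DLBCL3, at 3.25 CPM, miR-141 lay within the healthy range, at 4.05 CPM, and miR-200b had 0 reads. In DLBCL5 the sum was mostly miR-203, at 48.7 CPM. In DLBCL4, with the most miR-34b and miR-34c, the epithelial sum was 22.4 CPM, within the healthy range. The part of epithelial cells in the miR-449a values was not tested.

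The make-up of the family is given by library, as a description without a test of the shares. MiR-34a gave 78.3% to 99.6% of the reads of the 4 members in the lymphomas other than DLBCL3, and 32.2% to 64% in healthy nodes, where miR-34c gave 35.2% to 66.5%. In DLBCL3 miR-34a gave 13.1% (95% Wilson interval 10.7 to 15.9), miR-34c 48.3% (44.5 to 52.1) and miR-449a 38% (34.3 to 41.7) of 656 reads, intervals that cover counting error only. MiR-449a gave at most 1.23% of the family in any other library. The summed level of the 4 members was 30.9 CPM in DLBCL3 and 962 CPM in DLBCL4, with a median of 252 CPM in DLBCL, and 31.6 to 65 CPM in healthy nodes. The place of DLBCL3 beside the healthy nodes depended on the scaling. Its total was just under the lowest healthy node in CPM, whereas in TPM it was 25.44, within the healthy range of 16.45 to 72.14.

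**Figure D2:**
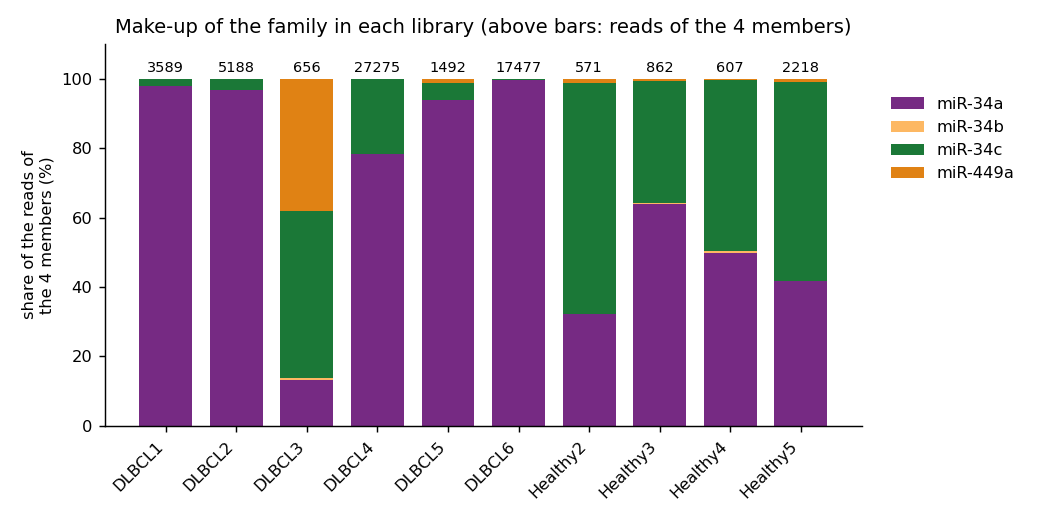
Share of the reads of the 4 members that each member took, in percent, with the number of these reads above each bar. MiR-34a fills 78.3% to 99.6% of 5 DLBCL bars, miR-34a and miR-34c divide the healthy bars, and miR-449a is visible as a large part in DLBCL3 only, at 38%.

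Because a ratio of 2 members with many reads does not depend on the scaling between libraries, the 6 pairs were compared in this way. For the log2 ratios 0.5 was added to each count. Those with miR-34b or miR-449a, which had libraries with 0 reads, therefore depend on depth and on the amount added. The mean log2 ratio of miR-34a to miR-34b was 2.78 higher in DLBCL, or 2.65 with 1 added and 3.23 with 0.1 added. The read ratio of miR-34a to miR-34c was 50.3 in DLBCL1, 30.4 in DLBCL2, 0.271 in DLBCL3, 3.64 in DLBCL4, 19.5 in DLBCL5 and 252 in DLBCL6. It was 0.484 in Healthy2, 1.82 in Healthy3, 1.01 in Healthy4 and 0.73 in Healthy5. As for miR-34a itself, 5 lymphomas lay above every healthy node and DLBCL3 below. DLBCL4, in which miR-34c was highest, kept a ratio above the healthy range.

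The mean log2 ratio of miR-34a to miR-34c was 3.95 higher in DLBCL than in healthy nodes, at 3.80 ± 3.41 (SD, n = 6) and -0.16 ± 0.81 (SD, n = 4), and the difference did not pass (two-sided exact permutation, p = 0.0667, 0.314 adjusted over the 6 pairs). The other pairs had adjusted p-values of 0.314 to 0.81 from the same exact test. Without DLBCL3, the differences for miR-34a to miR-34c (5.09) and for miR-34a to miR-34b (4.06) had an adjusted p of 0.0476 each in the exact permutation test, after a library known to go against the direction was dropped. For these pairs the groups then no longer overlapped, which by itself sets the exact p to its smallest value for 5 libraries against 4, so that it is no independent support. A difference in ratio shows that 2 members changed by unequal amounts, and not which of them changed.

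**Figure D3:**
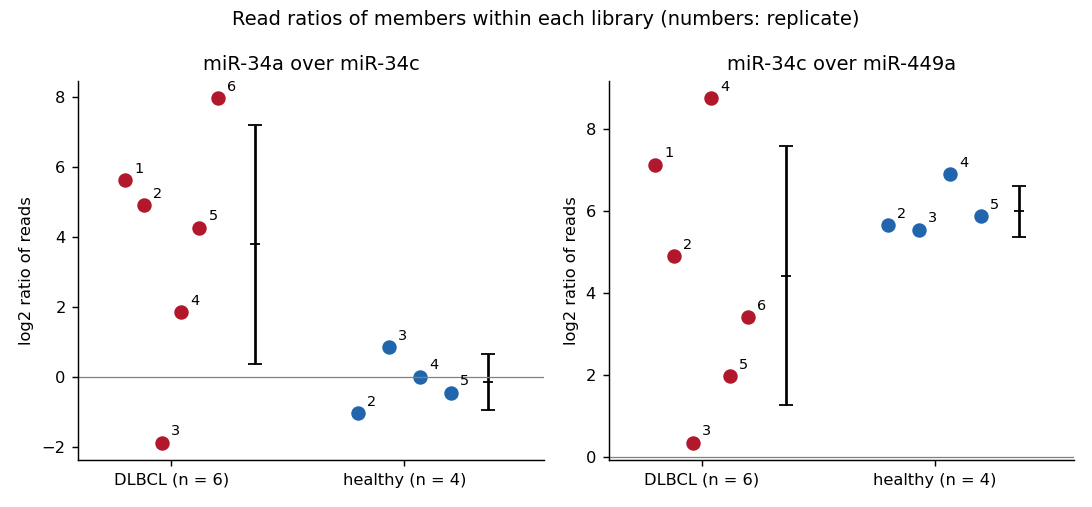
Log2 ratio of miR-34a to miR-34c reads (left) and of miR-34c to miR-449a reads (right) in each library, with 0.5 added to each count. Points are libraries with their replicate numbers, and bars show the group mean and SD. DLBCL3 has the lowest ratio in both panels, and the other DLBCL libraries lie above every healthy library on the left.

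Among the 6 DLBCL libraries miR-34a and miR-449a ran in opposite directions, with r = -0.86 (exact permutation p = 0.1, 0.3 adjusted over the 6 pairs) and rho = -0.60 (exact permutation p = 0.242, 0.725 adjusted), a relation that did not pass. Without DLBCL3 and DLBCL4, r was -0.81 over 4 libraries. For miR-34a and miR-34c, r was 0.10 and rho 0.03 (exact permutation p = 1 for each, also when adjusted), and r was -0.54 without the same libraries.

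The miRNAs most like each member were sought by the correlation of deviations from the group mean, over the 10 libraries, as a description. For miR-34a they were miR-145 (r = 0.96, rho = 0.87), which is abundant in smooth muscle and pericytes, miR-181c (r = 0.94, rho = 0.84), of a family expressed in developing lymphocytes, and miR-592 (r = 0.93, rho = 0.64). All 3 had their lowest value in DLBCL3, with 85 CPM of miR-145 against 364 to 1200 in the other lymphomas. Without DLBCL3, r fell to 0.81 for miR-145, 0.66 for miR-181c and 0.59 for miR-592 over 9 libraries. Their log2 fold changes were -0.30, -1.25 and -1.06, with adjusted p-values of 0.769, 0.321 and 0.29 from edgeR, so that none was called.

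For miR-34c, the nearest were miR-98 (r = 0.78, rho = 0.52), a let-7 relative, miR-450a (r = 0.77, rho = 0.45) and miR-374b (r = 0.66, rho = 0.52). MiR-98, miR-450a and miR-374b had their highest values in DLBCL4, at 873, 135 and 670 CPM, and without this library r was 0.33 for miR-98, 0.27 for miR-450a and 0.23 for miR-374b. For miR-449a, they were miR-8803 (r = 0.87, rho = 0.81), miR-148b (r = 0.87, rho = 0.62) and miR-450b (r = 0.86, rho = 0.75). MiR-8803 was at 9.51 CPM in DLBCL3 and at 0.176 to 1.11 CPM in the other libraries. Without DLBCL3, r was 0.52 for miR-8803, 0.49 for miR-148b and 0.66 for miR-450b. The points of each correlation share their libraries and their scaling, and the largest of many values was taken.

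MiRNAs outside the family that p53 is known to induce, or to help process, were compared next. Of 11 such miRNAs, all were tested, 1 was called higher, 0 lower and 10 were not called. Among all miRNAs tested, 3.64% were called higher and 2.02% lower, so that 1 call in a list this short is no result about the list. Their median log2 fold change was -0.07, against 0.13 for all miRNAs tested, and 5 of the 11 were above 0, against 55.5% of all. MiR-192, the one called, known from gut and liver, measured 1830 ± 792 CPM across the lymphomas (SD, n = 6) and 587 ± 37.8 CPM across the healthy nodes (SD, n = 4), and edgeR gave 1.64 ± 0.43 (log2 fold change and SE, adjusted p = 0.0397). Its transcript partner miR-194 was at 1.17 (adjusted p = 0.139) and its relative miR-215 at 0.26 (adjusted p = 0.758). MiR-145, which was close to miR-34a from library to library, and miR-143, from the same transcript, were at -0.30 and -0.07 (adjusted p = 0.769 and 0.939). MiR-16, miR-15a, miR-22, miR-141, miR-107 and miR-200c had log2 fold changes from -0.27 to 1.07 with adjusted p-values of 0.298 or more from edgeR.

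**Figure D4:**
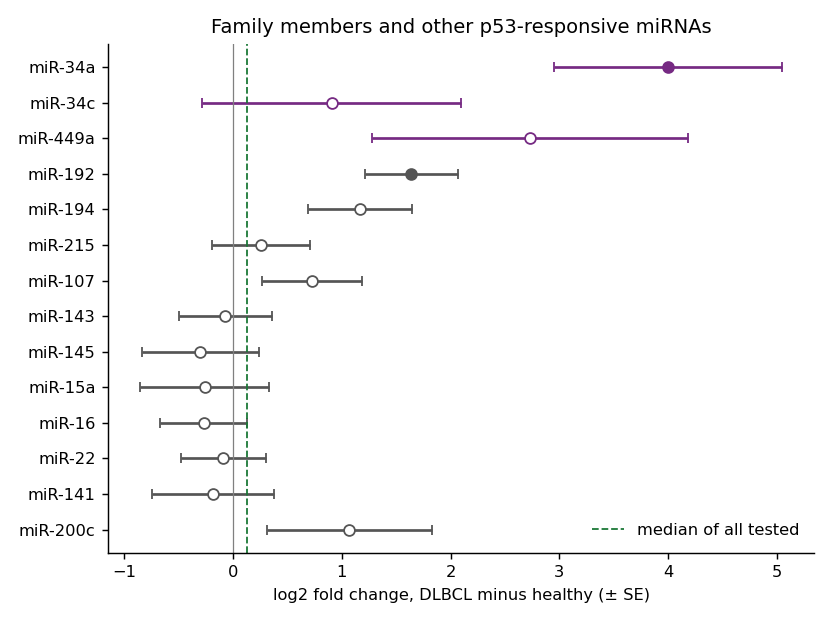
Log2 fold change between DLBCL and healthy nodes, with its standard error, for the 3 members tested (purple) and 11 p53-responsive miRNAs outside the family (grey). Filled points were called by edgeR (miR-34a and miR-192), the dashed line is the median of all miRNAs tested at 0.13, and miR-34a has the largest value shown at 4.0.

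Markers of other cells were set beside the rise of miR-34a. The summed level of miR-451, miR-144 and miR-486, of red blood cells, was 5170 to 35600 CPM in DLBCL and 808 to 1070 CPM in healthy nodes, with miR-451 and miR-486 called higher. The sum was highest in DLBCL1, which held more miR-34a, at 294 CPM, than DLBCL2, DLBCL3 and DLBCL5. Among the lymphomas the sum was lowest in DLBCL4 and DLBCL6, the libraries with the most miR-34a. MiR-144, a small part of the sum, did not follow this. It was highest of the 10 libraries in DLBCL6, at 24.4 CPM, and measured 12.3 CPM in DLBCL4, against 2.35 to 17.8 CPM in the other lymphomas. The sum of 5 miRNAs of stroma and vessels, mostly miR-143, was 18900 to 70600 CPM in DLBCL and 26900 to 55300 CPM in healthy nodes, and 0 of the 5 were called. MiR-143 did not follow miR-34a, and was lowest of the 10 libraries in DLBCL4, at 15600 CPM, and highest in DLBCL5, at 69200 CPM. The other 4 were, like miR-34a, lowest in DLBCL3 of all libraries, with 85 CPM of miR-145, 8.85 of miR-126, 239 of miR-199 and 9.7 of miR-214. Of the 247 miRNAs tested, 104 had their lowest DLBCL value in DLBCL3, so that a low value there is not particular to these 4. In the other lymphomas miR-126 measured 31.9 to 186 CPM, miR-199 measured 988 to 3030 CPM and miR-214 measured 29.4 to 90.9 CPM. Their part in the miR-34a values was not tested.

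**Figure D5:**
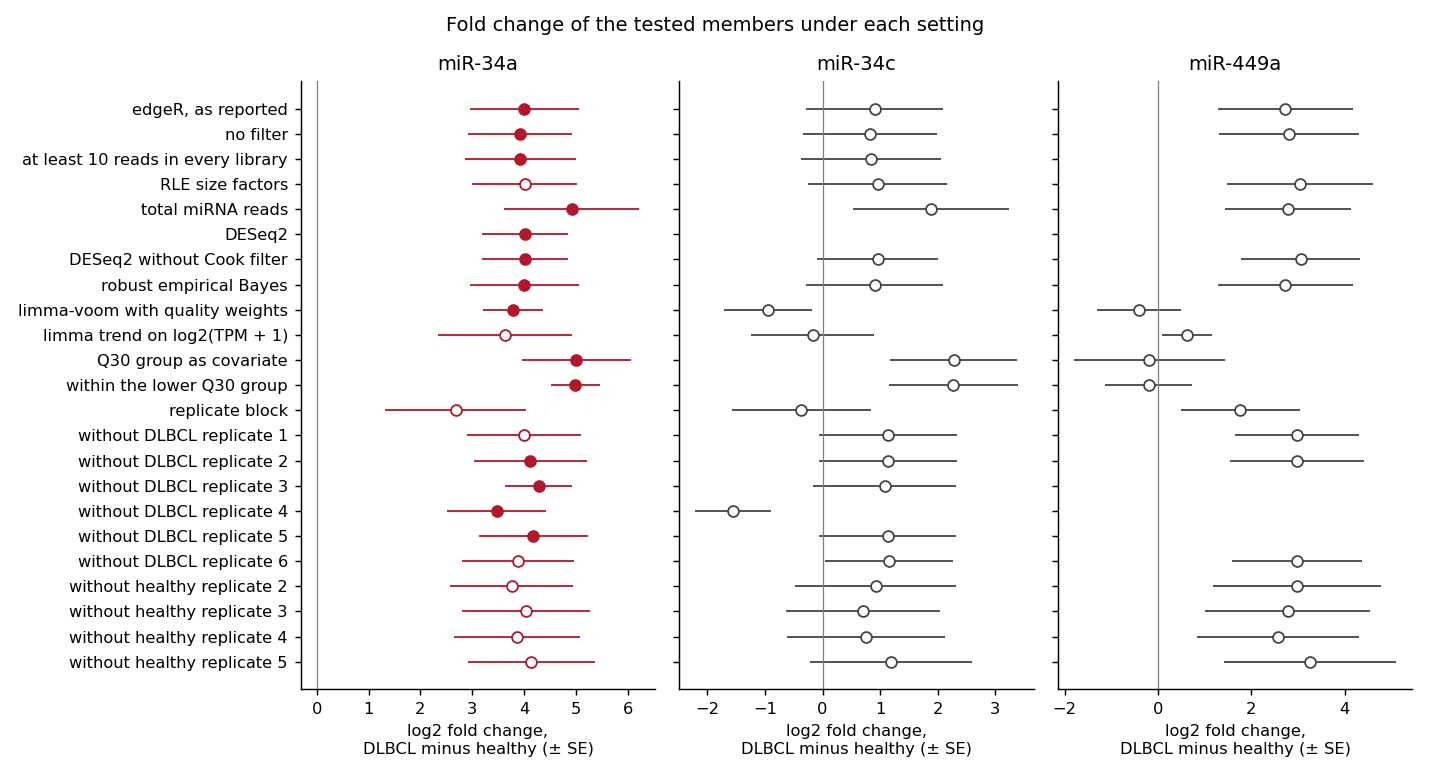
Log2 fold change between DLBCL and healthy nodes, with its standard error, for miR-34a, miR-34c and miR-449a under each setting tried. Filled points were called, and a missing point means that the member was not tested or had no adjusted p. MiR-34a is positive under every setting drawn, from 2.68 to 5.01, whereas miR-34c and miR-449a change sign.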

How the data were processed

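The members and lists of miRNAs were chosen with earlier results of these data known. Per the labels and the methods of the study, total RNA was extracted with the Monarch kit and libraries were made with the NEBNext small RNA set. The authors mapped trimmed reads with Bowtie 0.12.9, and CanFam3.1 is the build in the submitters' processing notes. Tags from repeats and from rRNA, tRNA, snRNA or snoRNA were discarded, and they counted mature miRNAs of miRBase 20 with a modified miRDeep2. The deposited read counts are not normalized, and most names carry no arm. The deposited TPM values are the counts scaled to the total of listed miRNA reads, with no length term, and differ from that quotient by at most 4.55e-05.

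Counts were tested with edgeR 4.0.16 in R 4.3.3 (TMM, filterByExpr by group, quasi-likelihood test), which left 247 of 320 miRNAs. The script was tested on simulated data. Log2 CPM used a prior count of 2. Exact permutation tests were two-sided (scipy 1.17.1). Named were the members, the 3 miRNAs nearest to each by correlation, the p53-responsive list, the marker lists and miR-449b. Alternatives used DESeq2 1.42.0 (the tool of the study), limma 3.58.1, other filters, scalings, the Q30 group, the replicate block and each library left out. DESeq2 without its Cook's distance filter, 2 fits without a filter and without DLBCL3 or DLBCL4, and the correlations without either library, were added after seeing the data. The libraries of a group are separate dogs, and no pair within a group was alike within sampling noise (chi-square statistic divided by its degrees of freedom at least 2266). Sequences of the members and the RT-qPCR values of the study were not used here.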

Additional observations from a re-analysis of the deposited data

Results flagged for a closer look

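In each group, the highest or lowest library was set against Dixon's 95% critical value for 8 sets of CPM values and 12 sets of log2 ratios of members. Chance flags about 1 in 20 such sets if their values are independent and normally distributed. Of the 20 sets, 3 were flagged, all of them sets of CPM. The sets share members and libraries, and CPM is not on a log scale, so that this count cannot be read against the chance rate. DLBCL4 was far from the other lymphomas for miR-34c, at 207 CPM, and for miR-34b, at 1.09 CPM. DLBCL3 was far from the other lymphomas for miR-449a, at 11.7 CPM. The low miR-34a of DLBCL3, 4.05 CPM, does not meet this criterion on the CPM scale, where the lowest value lies near the next.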

How the results depend on the processing

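The log2 fold change of miR-34a was positive under every setting tried. It was no longer called with DESeq2's size factors in edgeR (4.01, adjusted p = 0.0511), with limma's trend on log2(TPM + 1) (3.63, adjusted p = 0.0962) and with the replicate block (2.68, adjusted p = 0.341), and leaving out single libraries gave 3.47 to 4.28. DESeq2 gave 4.01 (adjusted p = 6.98e-05). For miR-34c the sign was reversed with limma-voom and quality weights (-0.95), limma's trend (-0.17), the replicate block (-0.37) and, with no filter and without DLBCL4, at -1.69, and the values ranged from -1.55 to 1.19 with each library left out. It was raised to 2.28 with the Q30 covariate, 2.27 within the lower Q30 group and 1.88 with total miRNA reads, without a call. For miR-449a it was reversed with limma-voom (-0.41), the Q30 covariate (-0.18) and within the lower Q30 group (-0.20), and it ranged from 2.57 to 3.26 in the 7 fits that left out a library and still tested it. The difference of mean log2 CPM of miR-34b was 0.31, ranged from -0.24 to 0.56 with each library left out, and was 1.14 within the lower Q30 group. With no filter, edgeR gave miR-34b a log2 fold change of 1.64 with all libraries (adjusted p = 0.454), 1.68 without DLBCL3 (adjusted p = 0.486) and -0.31 without DLBCL4 (adjusted p = 0.874). These values rest on healthy libraries at or under 3 reads. With its Cook's distance filter, DESeq2 gave no adjusted p for miR-34c and miR-449a, and miR-449a could not be fitted with at least 10 reads in every library.

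The 14 miRNAs called became 8 with DESeq2's size factors, 23 with total miRNA reads, 38 with DESeq2 (45 if its filter on Cook's distance was off), 46 with limma-voom, 7 with the Q30 covariate, 46 within the lower Q30 group and 1 with the replicate block, and leaving out single libraries gave from 1 call, in the absence of Healthy4, to 23, in the absence of DLBCL4. The replicate numbers name different dogs and did not pair the libraries: same-numbered libraries correlated at -0.33 to 0.26 in their deviations from the group means, and 1 of 4 healthy libraries correlated best with its own number. Among the ratios, the differences within the lower Q30 group turned to 0.80 for miR-34b to miR-449a and to 0.09 for miR-34c to miR-449a, and with each library left out the ranges were 1.89 to 4.06 for miR-34a to miR-34b, 3.12 to 5.09 for miR-34a to miR-34c and -1.13 to 0.44 for miR-34b to miR-449a. The cause of these changes was not tested. Depth limits miR-34b and miR-449a, which had under 10 reads in most libraries.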
